A study of Mus musculus with 6 samples.

Results

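The genes described here are those of the interleukin-2 (IL-2) and STAT5 pathway in mouse regulatory T cells (Treg): the transducers Stat5a and Stat5b, the kinases Pim1, Pim2 and Pim3, the transcription factor Myc, and the inhibitors Cish, Socs1, Socs2 and Socs3. They were taken as every probe set that the platform's annotation assigns to one of these symbols, which gave 18 of the 22690 probe sets and all 10 genes. Pim2, Cish, Socs1 and Myc had 1 probe set each, and the other 6 genes had several. RNA came from CD4+CD25+ cells separated with magnets, 3 samples from fl-DNMT1/Foxp3cre mice (Dnmt1 knockout) and 3 from wild type mice, all labelled C57BL6, with no treatment or age given. The knockout mice carry a floxed gene for the maintenance DNA methyltransferase and a Cre recombinase driven from Foxp3, so the deletion is directed to cells that express Foxp3, while CD25 also marks other activated T cells. The wild type mice are not described as carrying the Cre or the floxed allele, so effects of these alleles and of the deletion cannot be told apart. The labels do not tell whether the samples come from separate animals. The p-values therefore take in only how these samples vary, which may be technical. Each sample was hybridised to 1 array, and all values below are log2 RMA expression, in which a difference of 1 is a doubling. The number of arrays limits the precision.

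In T cells, IL-2 binds a receptor built of an alpha, a beta and a common gamma chain, whose attached kinases Jak1 and Jak3 phosphorylate STAT5. Phosphorylated STAT5 enters the nucleus and switches on target genes, among them Cish and the Socs genes, whose products shut the receptor off again, and Pim kinase genes. Treg make little IL-2 themselves, depend on IL-2 made by other cells, and need STAT5 to express Foxp3. Pim kinases are active as soon as they are made, so that their level is set largely by transcription and turnover, and they support survival and protein synthesis beside the mTOR pathway.

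STAT5 binds DNA at palindromes of the form TTCNNNGAA, which read the same on both strands. Of 32851 windows reaching from 250 bases before to 50 after an annotated gene start, from RefSeq on build GRCm38.p6, 8.30% held these letters. The table has 11 windows for 8 of the 10 genes, Myc and Socs2 being absent from it. The letters were found in 2 of the 11, those of Cish and Socs3. The windows of both are shown because they hold the motif, which is in capitals, and that of Pim2 because this was the member that rose. A match is a description of the sequence, and no match says only that these letters are not in this window.
Cish, chr9:107296409-107296708, + strand: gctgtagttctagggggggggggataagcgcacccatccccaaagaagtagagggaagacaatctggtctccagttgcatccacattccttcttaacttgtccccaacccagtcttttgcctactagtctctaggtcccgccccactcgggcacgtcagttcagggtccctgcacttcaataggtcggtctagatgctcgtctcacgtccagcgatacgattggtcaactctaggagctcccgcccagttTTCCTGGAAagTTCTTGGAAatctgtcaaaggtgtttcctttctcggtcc
Socs3, chr11:117969317-117969616, - strand: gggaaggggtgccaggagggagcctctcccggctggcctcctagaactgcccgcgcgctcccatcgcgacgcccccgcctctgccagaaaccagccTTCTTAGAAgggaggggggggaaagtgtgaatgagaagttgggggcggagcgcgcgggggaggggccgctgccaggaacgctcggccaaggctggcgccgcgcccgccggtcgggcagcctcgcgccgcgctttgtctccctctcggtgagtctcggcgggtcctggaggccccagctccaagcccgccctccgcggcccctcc
Pim2, chrX:7878056-7878355, + strand: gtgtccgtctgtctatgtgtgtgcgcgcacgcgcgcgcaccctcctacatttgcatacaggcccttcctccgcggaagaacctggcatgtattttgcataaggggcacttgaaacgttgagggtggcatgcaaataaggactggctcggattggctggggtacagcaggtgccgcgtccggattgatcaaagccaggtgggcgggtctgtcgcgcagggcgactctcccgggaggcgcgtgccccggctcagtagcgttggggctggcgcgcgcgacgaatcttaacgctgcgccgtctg
In the Cish window the matches were TTCCTGGAA and TTCTTGGAA, 2 in close succession and beginning at bases 1 and 12 counted from the annotated start. In the Socs3 window the match was TTCTTAGAA, beginning 154 bases before the annotated start of the transcript used.

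The comparison asks which members differ in transcript level when the cells that express Foxp3 lose Dnmt1. Pim2 rose 2.13-fold in the knockout, while no probe set of the other 9 genes passed the test. Stat5a, Stat5b and Myc had lower means in the knockout, with differences of -0.36 to -0.25 at their brightest probe sets, and Socs2 and Socs3 had higher means, with differences of 0.31 and 0.47 for Socs3 and Socs2, none of these called. Cish, Socs1 and Pim1 had differences between -0.05 and 0.09. Groups were compared with limma over all 22626 probe sets that are not controls, and a probe set was called at a Benjamini-Hochberg adjusted p under 0.05. By this rule 1 member probe set was called higher and 0 lower, where 1.68% of all probe sets tested were called, 1.19% higher and 0.486% lower. At an unadjusted p under 0.05 were 5 member probe sets with a higher and 5 with a lower mean in the knockout, where 16.6% of all probe sets were, 7.53% higher and 9.12% lower. The higher ones were of Pim2, Socs2 and Socs3 and the lower ones of Pim3, Stat5a, Stat5b and Myc. Socs2, Socs3 and Stat5a entered with more than 1 probe set each, so these are not separate genes. The median difference was -0.04 over the 18 member probe sets and -0.02 over all probe sets tested.

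**Figure D1:**
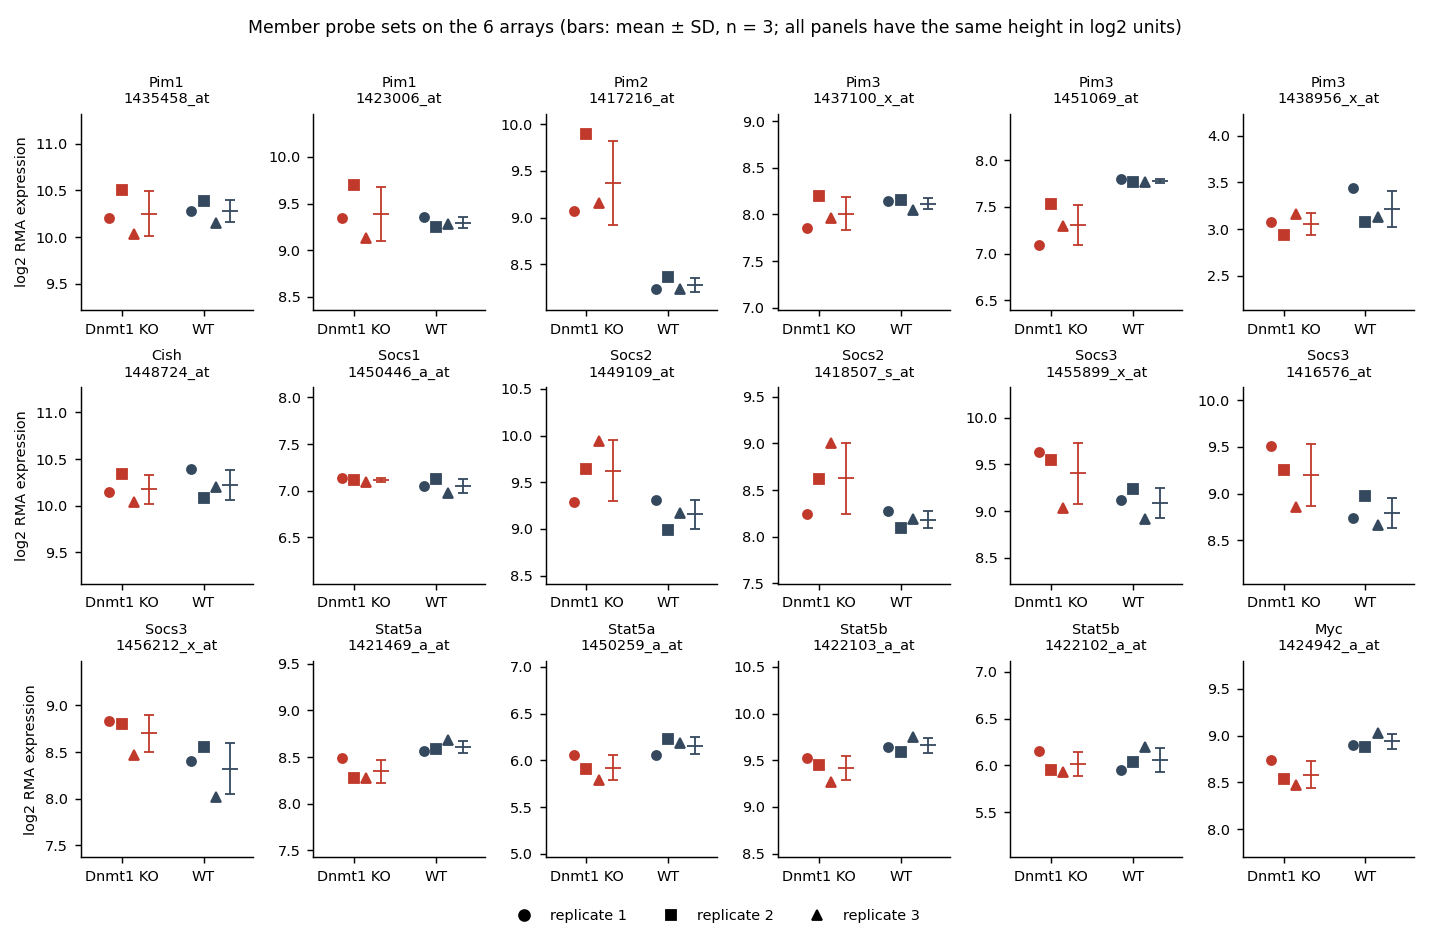
Log2 RMA expression (vertical axis) of the 18 member probe sets on the 3 Dnmt1 knockout arrays (red) and the 3 wild type arrays (blue), 1 panel per probe set, with symbols for the replicate number and the mean ± SD beside them. Pim2 is the probe set whose knockout values, 9.07 to 9.89, all lie above those of wild type, 8.23 to 8.37.

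The arrays themselves were alike in scale, with medians over probe sets between 5.70 and 5.77. Dnmt1, by its brightest probe set, had 8.67, 8.89 and 9.34 on knockout replicates 1, 2 and 3, against 9.56, 9.43 and 9.50 in wild type (difference -0.53, limma adjusted p = 0.162), and its other probe set had a difference of -0.72 (adjusted p = 0.113). Without knockout replicate 3 the first of these was -0.72 and called (adjusted p = 0.0457), and no source used here says whether these probe sets lie in the deleted part. T cell genes were strongly present in both groups, the 8 measured markers averaging 10.43 to 10.86 on the knockout arrays and 10.80 to 10.85 in wild type. All 8 had a negative difference, with a median of -0.22, and 0 were called. Neutrophil markers were higher in the knockout, 8 of 13 measured markers passing the test and 13 of 13 having a positive difference. The mean of that list was 8.04, 10.03 and 8.68 on knockout replicates 1, 2 and 3, against 6.16, 6.37 and 5.96 in wild type. Of 14 monocyte and macrophage markers 2 were called higher, with list means of 6.57 to 6.74 in the knockout and 5.41 to 6.05 in wild type. Of 9 Treg markers 3 were called lower, 7 had a negative and 2 a positive difference. Those 2 were Gpr83 (0.14) and Itgae (0.64, limma adjusted p = 0.139). The mean of the 9 was 8.92, 8.55 and 8.25 on knockout replicates 1, 2 and 3, against 8.88 to 8.99 in wild type. The part of these other cells in the members' differences was not tested, and in RNA of whole samples fewer cells of a type and less RNA per cell cannot be told apart.

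Stat5a and Stat5b encode the pair of closely related STAT5 proteins, which T cells use largely in parallel. The brighter Stat5a probe set had 8.49, 8.27 and 8.28 on knockout replicates 1, 2 and 3, against 8.56, 8.59 and 8.68 in wild type. The groups did not overlap, knockout replicate 1 lying close to the lowest wild type array, and the difference was -0.26 (SE 0.09, 95% interval -0.47 to -0.05, limma adjusted p = 0.206). The dimmer Stat5a probe set had a difference of -0.24 (SE 0.10, adjusted p = 0.280), with 1 knockout array at 6.06 just above the lowest wild type array at 6.05. The brighter Stat5b probe set had 9.52, 9.45 and 9.27 in the knockout, against 9.64, 9.59 and 9.75 in wild type. Here too every knockout array was below every wild type array, with a difference of -0.25 (SE 0.09, 95% interval -0.47 to -0.03, adjusted p = 0.252). The dimmer Stat5b probe set did not show this, with 5.93 to 6.16 in the knockout and 5.95 to 6.20 in wild type (difference -0.04, adjusted p = 0.866). In all, 4 of the 18 member probe sets had all knockout arrays below all wild type arrays, namely these brighter Stat5a and Stat5b probe sets, the Myc probe set and 1 of Pim3, where 13.6% of all probe sets did. Pim2 was the 1 probe set with all knockout arrays above, as 9.79% of all probe sets were, and over both directions the share was 23.4%.

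Pim2 encodes a serine/threonine kinase of lymphocytes that supports cell survival. Its probe set had 9.07, 9.89 and 9.15 on knockout replicates 1, 2 and 3, against 8.24, 8.37 and 8.23 on the wild type arrays. The groups were far apart, and the knockout arrays spread more widely because replicate 2 stood above the other two. Pim2 averaged 9.37 ± 0.45 in the knockout and 8.28 ± 0.08 in wild type (SD, n = 3 each), a difference of 1.09 (SE 0.20, 95% interval 0.62 to 1.56, limma adjusted p = 0.0469). Knockout replicate 2 also had the highest mean of the neutrophil (10.03), monocyte and macrophage (6.74), CD8 and NK cell (8.70) and dendritic cell (5.67) lists. The monocyte and macrophage list was mixed. Genes such as Cd14 and Lyz2 were highest, while C1qa, C1qb, C1qc and Vcam1 were lowest among the knockout arrays, on knockout replicate 2. Without that array the Pim2 difference was 0.83 and the call held (adjusted p = 0.0158), and without knockout replicate 1 it was 1.24 (adjusted p = 0.0308). Leaving out knockout replicate 3 ended the call (1.20, adjusted p = 0.0784), as did leaving out wild type replicate 1, 2 or 3 (1.07, 1.14 and 1.07, adjusted p = 0.182, 0.148 and 0.187). With the neutrophil list mean of each array as a covariate, which differs between the groups as well, the Pim2 difference was -0.09 (SE 0.22, adjusted p = 0.931).

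Pim1, the founding member of the family and a target of STAT5 and STAT3, did not follow Pim2. Its brighter probe set had 10.21, 10.51 and 10.03 in the knockout, against 10.28, 10.39 and 10.16 in wild type. The groups overlapped fully, with a difference of -0.03 (95% interval -0.33 to 0.28, adjusted p = 0.944), which was 0.03 with cyclic loess. The dimmer probe set had 9.34, 9.70 and 9.13 in the knockout, against 9.36, 9.24 and 9.28 in wild type (difference 0.09, 95% interval -0.23 to 0.42, adjusted p = 0.781). On both probe sets knockout replicate 2 was the highest array and knockout replicate 3 the lowest.

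Pim3, the third kinase of the family, gave different answers on its 3 probe sets. The brightest had 7.85, 8.20 and 7.96 in the knockout, against 8.15, 8.15 and 8.05 in wild type, with overlapping groups (difference -0.11, 95% interval -0.35 to 0.13, adjusted p = 0.646). The next had 7.09, 7.53 and 7.30 in the knockout, against 7.80, 7.76 and 7.76 in wild type. There all knockout arrays lay below the wild type arrays, by -0.47 on average (SE 0.12, 95% interval -0.74 to -0.20, adjusted p = 0.102), and without knockout replicate 2 the difference was -0.58 and called (adjusted p = 0.0425). The dimmest lay between 2.93 and 3.44 on all arrays, a level that 13.5% of probe sets fell below (difference -0.16, adjusted p = 0.549).

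Whether Pim2 differed from its relatives was tested on the difference between 2 Pim genes within each array, by their brightest probe sets. Pim2 minus Pim1 was -1.13, -0.62 and -0.88 in the knockout, against -2.05, -2.02 and -1.92 in wild type, a change of 1.12. Pim2 minus Pim3 was 1.22, 1.69 and 1.19 in the knockout, against 0.09, 0.22 and 0.18 in wild type, a change of 1.20. Both pairs separated the groups completely, at the smallest p that 3 arrays against 3 allow (exact two-sided permutation test, p = 0.1, adjusted over 3 pairs 0.15), so this design could not reach 0.05. Pim1 minus Pim3 averaged 2.24 ± 0.15 in the knockout and 2.16 ± 0.07 in wild type (SD, n = 3 each), a change of 0.08 (exact permutation p = 0.4, adjusted 0.4).

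The genes whose profile was most like that of Pim2 were sought among 6196 genes at or above the median level, by the root mean square distance between deviations from the wild type mean over the 6 arrays. They were Wdfy1 (distance 0.08), L1cam (0.09), Fes (0.14), Furin (0.15) and Sorl1 (0.17). Furin, which encodes a proprotein convertase, had 8.44, 9.18 and 8.75 in the knockout, against 7.61, 7.54 and 7.79 in wild type, and L1cam, a cell adhesion molecule gene, 8.94, 9.55 and 8.78 in the knockout, against 8.01, 8.10 and 8.03 in wild type. Fes encodes a tyrosine kinase and Sorl1 a sorting receptor. All 5 were picked for their likeness to Pim2 over these arrays, so that their differences of 1.01 to 1.15 and their high values in knockout replicate 2 follow from the choice and are given with no test.

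**Figure D2:**
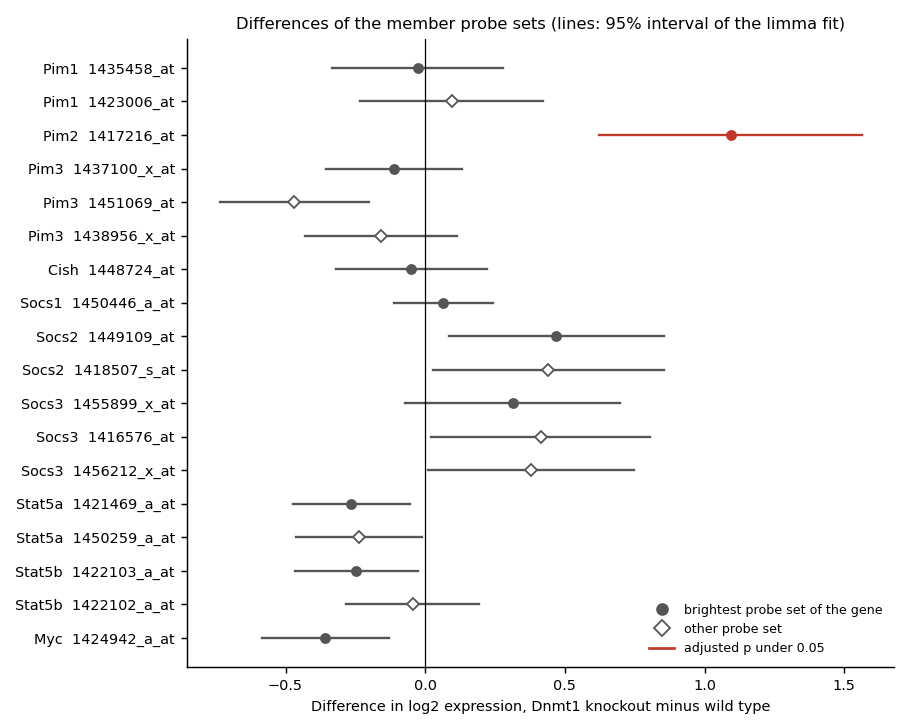
Difference in log2 expression, Dnmt1 knockout minus wild type (horizontal axis), for the 18 member probe sets, with the 95% interval of the limma fit as a line, filled circles for the brightest probe set of a gene and open diamonds for others. Pim2 (red) is the called probe set, at 1.09, and the intervals of Socs1 and Cish reach no further than 0.24 and -0.32 from 0.

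Myc encodes a transcription factor that drives growth and ribosome production, and IL-2 is among the signals that raise it in T cells. Its probe set had 8.74, 8.53 and 8.47 on knockout replicates 1, 2 and 3, against 8.90, 8.88 and 9.03 in wild type. No knockout array reached the wild type range, with a difference of -0.36 (SE 0.10, 95% interval -0.59 to -0.13) that missed the threshold (limma adjusted p = 0.134). With 1 array left out the difference was between -0.44 and -0.30 and the adjusted p between 0.0573 and 0.358.

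Cish encodes CIS, an inhibitor that docks at the activated IL-2 receptor and is among the genes that STAT5 switches on most directly. It had 10.14, 10.35 and 10.04 in the knockout, against 10.40, 10.08 and 10.20 in wild type. The groups were interleaved, with means of 10.18 ± 0.16 and 10.22 ± 0.16 (SD, n = 3 each) in knockout and wild type. The difference of -0.05 (95% interval -0.32 to 0.22, limma adjusted p = 0.868), 0.0019 with cyclic loess, leaves room for a small rise or fall.

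Socs1 encodes an inhibitor that binds Jak kinases and restrains IL-2 and interferon signals. It had 7.13, 7.12 and 7.09 in the knockout, against 7.05, 7.12 and 6.98 in wild type. This was the tightest member on the knockout arrays, with an SD of 0.02, and its difference was 0.06 (95% interval -0.11 to 0.24, adjusted p = 0.725).

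Socs2 is best known as an inhibitor of growth hormone receptor signalling and is a STAT5 target. Its brighter probe set had 9.29, 9.65 and 9.94 on knockout replicates 1, 2 and 3, against 9.31, 8.99 and 9.17 in wild type. Knockout replicate 1 lay within the wild type range and replicates 2 and 3 above it. The dimmer probe set showed the same placing, with 8.24, 8.62 and 9.01 in the knockout, against 8.27, 8.09 and 8.19 in wild type. The differences were 0.47 (SE 0.17, 95% interval 0.08 to 0.85, adjusted p = 0.219) and 0.44 (SE 0.18, 95% interval 0.03 to 0.85, adjusted p = 0.273). Without knockout replicate 1 they were 0.64 and 0.63 (adjusted p = 0.0610 and 0.0609), and without knockout replicate 3 they were 0.31 and 0.25 (adjusted p = 0.384 and 0.445).

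Socs3 restrains cytokines that signal through gp130 and STAT3, such as interleukin-6. Its brightest probe set had 9.63, 9.55 and 9.03 on knockout replicates 1, 2 and 3, against 9.12, 9.23 and 8.92 in wild type. In contrast to Socs2, replicates 1 and 2 lay above the wild type range and replicate 3 within it. The other probe sets had 9.51, 9.25 and 8.85 in the knockout against 8.74, 8.97 and 8.66 in wild type, and 8.83, 8.80 and 8.47 in the knockout against 8.40, 8.55 and 8.02 in wild type, so that knockout replicate 3 was the lowest of the knockout arrays on all 3. The differences were 0.31, 0.41 and 0.38, with 95% intervals of -0.07 to 0.70, 0.02 to 0.81 and 0.01 to 0.75, and none passed (adjusted p = 0.401, 0.279 and 0.292). With 1 array left out they stayed positive and uncalled, at 0.20 (without knockout replicate 1) to 0.50 (without knockout replicate 3) for the brightest, 0.26 to 0.59 (without the same arrays) for the next and 0.22 (without wild type replicate 3) to 0.49 (without wild type replicate 2 or knockout replicate 3) for the dimmest.

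The members thus did not share an order of the knockout arrays. By their brightest probe sets, replicate 2 was the highest knockout array for Pim2, Pim1, Pim3 and Cish. It was also the highest by the means of the neutrophil, monocyte and macrophage, CD8 and NK cell and dendritic cell lists. In the monocyte and macrophage list, however, it was the lowest knockout array for C1qa, C1qb, C1qc and Vcam1. Replicate 3 was the highest for Socs2, and replicate 1 for Socs1, Socs3, Stat5a, Stat5b and Myc. Replicate 1 was also the highest knockout array for the T cell list (10.86, 10.48 and 10.43 on knockout replicates 1, 2 and 3), the Treg list and the plasma cell list (8.96, 8.55 and 8.18, against 8.01 to 8.25 in wild type, 0 of 6 markers called). Stat5b and Myc (lower means) and Socs1 and Socs3 (higher means) had the same order of the knockout arrays as these 3 lists. The part of these cells in the differences of these genes was not tested. The interferon list was highest in replicate 3, as Socs2 was.

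**Figure D3:**
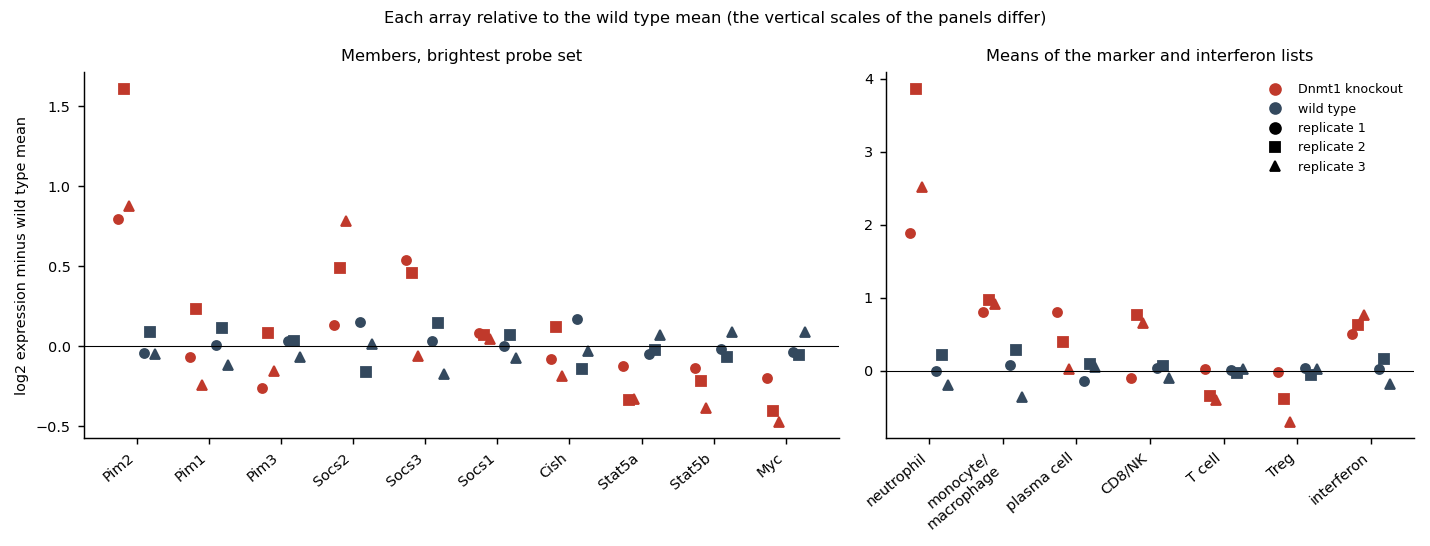
Log2 expression of each array minus the wild type mean (vertical axes, which differ in scale) for the members by their brightest probe set (left) and for the means of 6 marker lists and the interferon list (right), Dnmt1 knockout in red and wild type in blue, with symbols for the replicate number. Knockout replicate 2 (square) is highest for Pim2 and for the neutrophil, monocyte/macrophage and CD8/NK lists. Replicate 3 (triangle) is the highest knockout array for Socs2 and replicate 1 (circle) for Socs3.

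Other genes of the pathway were counted by their brightest probe set in the same fit, in which 1.83% of 12393 genes were called, 1.32% higher and 0.516% lower. Upstream of STAT5, 1 of 12 measured receptor and Jak genes was called lower, 0 were called higher and 11 did not pass. The gene called was Il2ra, the alpha chain that the CD25 separation is based on, with 8.60, 8.21 and 8.33 in the knockout, against 9.06, 8.91 and 9.12 in wild type (difference -0.64, limma adjusted p = 0.0444). Its other probe set had a difference of -0.24 (adjusted p = 0.308), and Il2ra was not called once wild type replicate 1, 2 or 3 or knockout replicate 2 or 3 was left out (adjusted p = 0.0889 to 0.187). Of the other Stat genes 0 of 4 passed, of the other Socs genes 0 of 4, of phosphatases and further inhibitors 0 of 12 and of receptor adaptors 0 of 8. At an unadjusted p under 0.05 these 4 lists had 0, 1, 2 and 0 members, where 17.7% of all genes were. The lowest p in each were those of Stat6 (-0.11) and Stat3 (0.13), Socs5 (-0.35) and Socs4 (-0.15), Cbl (-0.37) and Ptpn11 (-0.24), and Shc1 (-0.14) and Grb2 (-0.09), as differences with adjusted p of 0.211 or more.

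Of 28 measured other targets of IL-2 and STAT5, 1 was called higher, 1 lower and 26 not called, with a median difference of -0.03 against -0.01 over all genes. Prdm1, which encodes the repressor Blimp1, had 7.71, 7.85 and 7.87 in the knockout, against 7.36, 7.36 and 7.35 in wild type (difference 0.45, limma adjusted p = 0.0402). Il2ra was the target called lower. The list was chosen with earlier results of these data known. It shares Foxp3, Il2ra, Ctla4 and Tnfrsf18 with the Treg markers and Prf1 with the CD8 and NK cell markers. Its counts therefore describe these genes and are no test of STAT5 targets. Few targets were called, but many differed at the unadjusted threshold, 8 with a higher and 8 with a lower mean. This is 57.1% of the list, where 8.46% of all genes were higher and 9.19% lower by this rule. Named after their values were seen, those with higher means included Bhlhe40 (0.97, adjusted p = 0.156) and Ccnd3 (0.37, adjusted p = 0.226), and those with lower means Tnfrsf9 (-0.42, adjusted p = 0.152) and Ctla4 (-0.44, adjusted p = 0.292), genes of a transcription factor, a D-type cyclin, a costimulatory receptor and an inhibitory receptor. The survival genes Bcl2 and Bcl2l1 and the cyclin gene Ccnd2, also picked after the fact, had differences of 0.06, -0.02 and 0.03 (adjusted p = 0.775 to 0.938). Without knockout replicate 1 the calls in this list were 7 higher and 3 lower, and with any other 1 array left out they were 0 and 0.

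Among 6 measured genes known to be lowered by STAT5, 1 was called lower and 0 higher. It was Il6st, which encodes gp130, the receptor subunit that Socs3 acts on, with 9.14, 8.74 and 8.61 in the knockout, against 9.58, 9.56 and 9.66 in wild type (difference -0.77, limma adjusted p = 0.0402). Its other probe sets had differences of -0.69 and -0.25 (adjusted p = 0.152 and 0.340). Leaving out any 1 wild type array, or knockout replicate 2 or 3, ended the Il6st call (adjusted p = 0.0912 to 0.174) and the Prdm1 call (adjusted p = 0.0846 to 0.170). Bcl6, the repressor opposed by Blimp1 and likewise picked after its value was seen, had a difference of -0.27 (adjusted p = 0.290). At an unadjusted p under 0.05 were 3 of the 6 genes, all lower, where 9.19% of all genes were lower by this rule. They were Il6st, Bcl6 and Il6ra (-0.72, limma adjusted p = 0.121), and the other 3 had positive differences.

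**Figure D4:**
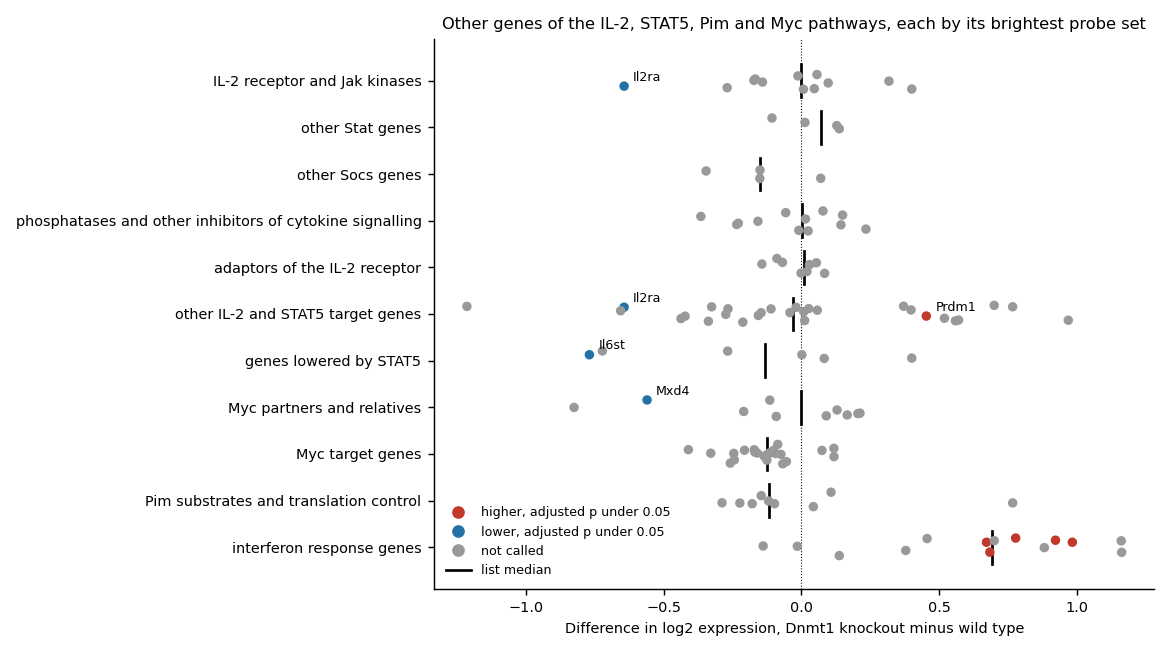
Difference in log2 expression, Dnmt1 knockout minus wild type (horizontal axis), of the measured genes of 11 pathway lists (rows), each dot 1 gene by its brightest probe set, red where called higher, blue where called lower, with a black bar at the list median. List medians lie between -0.15 and 0.07 except that of the interferon response genes, at 0.69.

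Downstream of Myc, 0 of 22 measured Myc target genes passed in either direction. At an unadjusted p under 0.05 were 2 of them, or 9.09%, where 17.7% of all genes were. The differences of the 22 were mostly small and negative, 19 of 22, with a median of -0.12 against -0.01 over all genes. The lowest p were those of Ncl, encoding nucleolin (11.16, 10.78 and 11.43 in the knockout, against 11.57, 11.54 and 11.50 in wild type, adjusted p = 0.242), and the DNA repair gene Apex1 (difference -0.33, adjusted p = 0.270). Of 10 Myc partners and relatives 1 was called lower, Mxd4, which encodes a Max-binding repressor that opposes Myc. It had 8.54, 8.69 and 8.46 in the knockout, against 9.18, 8.99 and 9.19 in wild type (difference -0.56, adjusted p = 0.0401), and 1 of its 3 other probe sets was called too (-0.56, adjusted p = 0.0473). The Mxd4 call was lost with cyclic loess (-0.51, adjusted p = 0.0578) and when any 1 wild type array, or knockout replicate 1 or 3, was left out (adjusted p = 0.0580 to 0.174). Of 9 Pim substrates and translation regulators 0 passed and 1 was at an unadjusted p under 0.05, Cdkn1a, encoding the cell cycle inhibitor p21, with 6.58, 7.44 and 7.22 in the knockout, against 6.34, 6.52 and 6.08 in wild type (difference 0.77, adjusted p = 0.148). Its dimmer probe set was called higher, with 6.50, 6.88 and 6.82 in the knockout, against 5.78, 5.98 and 5.82 in wild type (difference 0.87, adjusted p = 0.0192), and the brighter was called without knockout replicate 1 (1.02, adjusted p = 0.0207). Foxo1, a transcription factor gene, had -0.29 (adjusted p = 0.420). Its other probe sets had differences of -0.30, -0.49 and, at the dimmest, 0.13 (adjusted p = 0.141, 0.266 and 0.457).

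Interferons also raise Socs1 and Pim1, and 5 of 14 measured interferon response genes rose in the knockout, with 0 lower. They were Isg20 (1.59-fold, limma adjusted p = 0.0161), Iigp1 (1.61-fold, 0.0192), Usp18 (1.72-fold, 0.0340), Oas2 (1.98-fold, 0.0350) and Oas1a, the last named beyond the rule of 4 a list. The list mean was 8.76, 8.89 and 9.03 on knockout replicates 1, 2 and 3, against 8.28, 8.43 and 8.09 in wild type. Socs1, with an interval that ends at 0.24, and Pim1 were not called. The count was 0 without wild type replicate 1 or 3, 2 without wild type replicate 2 or knockout replicate 3, 3 without knockout replicate 2, 2 with the replicate number as a block and 0 with the neutrophil covariate. With that covariate the differences of Isg20, Iigp1, Usp18 and Oas2 were 0.73, 0.71, 1.14 and 0.77 (adjusted p = 0.338 to 0.604).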

How the data were processed

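Total RNA was labelled with biotin and hybridised in 1 colour, per the labels' protocols. The deposited values are log2 expression per probe set made by the authors with RMA, per the submitters' processing notes, whose version and settings are not stated in the sources used. RMA sets background and scale across arrays and compresses low levels, so fold changes of dim genes are understated. Probe sets were named through the platform's annotation: of 22690, 64 were controls, 20380 had 1 symbol, 691 several and 1555 none.

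All 22626 probe sets that are not controls were fitted with limma 3.58.1 (lmFit, eBayes) in R 4.3.3, two-sided, knockout minus wild type, with no filter and Benjamini-Hochberg adjustment over all of them. Fitting by probe set follows the way the members were chosen. A gene outside the members is given by its brightest probe set, the one with the highest mean over the 6 arrays. Pairs of Pim genes were compared by an exact permutation test over arrays. The fit was tested on simulated data. The members, lists and rules were chosen with earlier results of these data known. Named beside the members were, per list, up to 4 called genes, or the 2 with the lowest p, Dnmt1, Foxp3 and the 5 genes most like each called member. Lists share some genes, such as Il2ra and Cdkn1a, and the marker lists gave list means by array. Of the marker lists, B cell (8 measured), dendritic cell (5) and erythroid (4) genes had 0 called, and 1 of 8 CD8 and NK cell genes, Ncr1, was called higher. That list was mixed, with 5 positive and 3 negative differences, the latter Cd8a (-0.36), Cd8b1 (-0.61) and Gzma (-0.66), none called. Alternatives were quantile normalisation, median centring, cyclic loess, leaving out the dimmest 40%, testing by gene, array weights, a trended and robust variance, a replicate block, the neutrophil list as a covariate and leaving out each array. Matplotlib 3.10.9 under Python 3.11.15 drew the figures.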

Additional observations from a re-analysis of the deposited data

How the results depend on the processing

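Pim2 was higher and called in 11 of the 16 alternatives tried, with differences of 0.83 to 1.24 among these. It was not called in the other 5, the neutrophil covariate and leaving out any wild type array or knockout replicate 3. Member probe sets called higher numbered 0 with the neutrophil covariate and between 0 and 1 with 1 array left out. Those called lower numbered between 0 and 1 with 1 array left out. Over all probe sets, 270 were higher and 110 lower. The counts were 165 and 71 with the brightest probe set per gene, 166 and 52 with the replicate block, and 9 and 3 with the neutrophil covariate, while 182 were lower with trend and robust variance and 169 with array weights. With 1 array left out they were 24 to 493 higher and 5 to 263 lower, and leaving out an array also leaves fewer arrays.

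No pairing by replicate number was seen. Deviations from the group means of arrays with the same number correlated at -0.08, 0.11 and -0.01 across probe sets. Those of arrays with different numbers correlated at -0.11 to 0.12. With 3 arrays per group this does not show that the samples were unpaired. With the replicate block Pim2 was at 1.09 (adjusted p = 0.0465), and Il2ra, Prdm1, Il6st, Mxd4, Usp18 and Oas2 lost their calls (adjusted p = 0.0590 to 0.110). With the mean of probe sets Il2ra and Il6st lost theirs (0.0918 and 0.0892). With the neutrophil covariate these calls were lost too: Il2ra was at -0.11, Il6st at -0.34, Prdm1 at 0.29 and Mxd4 at -0.74 (adjusted p = 0.899, 0.765, 0.668 and 0.407).

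With the neutrophil covariate the sign turned for Pim2 (-0.0853), the dimmer Pim1 (-0.46), the dimmest Pim3 (0.0925), the brighter Stat5a (0.0056), the dimmer Stat5b (0.23), Stat3 (-0.24), Ncl (0.20), Apex1 (0.12), Cdkn1a (-0.39) and Foxo1 (0.45), none called; the cause was not tested. With cyclic loess it turned for the brighter Pim1 (0.0252) and Cish (0.0019), and with the mean of probe sets for Pim1 (0.0343). With 1 array left out the brighter Pim1 ranged from -0.16 to 0.0825, the dimmer from -0.0584 to 0.23, Cish from -0.13 to 0.0364, the dimmer Stat5b from -0.12 to 0.0255 and Socs4 from -0.28 to 0.0795. The differences between Pim genes kept their sign in every alternative tried for them.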

Other observations

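Pim2 lies on the X chromosome near Foxp3, from which the Cre is expressed in the knockout mice and which is not among the members. In the RefSeq gene table, 14 other protein-coding genes lie between them, of which 11 were measured. This stretch was looked at after the values were seen, and its part in the Pim2 difference was not tested. Of the 11 genes, 0 were called in either direction by limma at an adjusted p under 0.05, where 1.83% of all genes were. At that share hardly any call would arise among 11 genes. Some of them were also dim, such as Ccdc120 and Kcnd1 with wild type means of 2.99 and 3.50, so that 0 calls say little. With 10 protein-coding genes added on either side, 25 were measured and 0 were called. At an unadjusted p under 0.05 were 2 of these, where 17.7% of all genes were. They were Plp2, between Foxp3 and Pim2, with a difference of 0.42 (adjusted p = 0.219), and Pqbp1, beyond Pim2, with -0.20 (adjusted p = 0.300). Otud5, the measured gene next to Pim2 on the side of Foxp3, had a difference of -0.10 (adjusted p = 0.633), and Slc35a2, the measured gene next to it on the other side, 0.02 (adjusted p = 0.957). Foxp3 itself had 9.28, 8.82 and 8.43 in the knockout, against 9.47, 9.51 and 9.51 in wild type (difference -0.66, adjusted p = 0.151), so that its mean and that of Pim2 differed in opposite directions, and the Foxp3 difference was called without knockout replicate 1 (-0.87, adjusted p = 0.0204).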
